A study of Mus musculus with 10 samples.

Results

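The genes described here are the protein-coding genes of the cytosolic ribosome, 83 of the 21951 protein-coding genes in the GENCODE M21 annotation of the mouse genome (mm10). They were chosen by symbol alone: names beginning with Rpl or Rps followed by a number, with an optional letter a, x, y or l and an optional further number, together with Rplp0, Rplp1, Rplp2 and Rpsa. Of these, 51 encode proteins of the large subunit and 32 proteins of the small subunit. Fau, whose product carries a ribosomal protein fused to a ubiquitin-like protein, falls outside this naming rule and is given with the translation factors further on.

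Every cytosolic ribosome carries one set of these proteins around its ribosomal RNA, and their genes are among the most heavily transcribed in dividing mammalian cells. Their mRNAs characteristically begin with a C followed by a run of pyrimidines, the terminal oligopyrimidine (TOP) tract, through which mTOR signalling controls their translation as a group. Many of the genes also carry small nucleolar RNAs (snoRNAs) in their introns, and they have given rise to large families of processed pseudogenes.

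ChIP-seq was performed on cultured mouse oligodendrocytes that had been differentiated from neural stem cells (NSCs) of an FvB/C57BL6 hybrid strain, either wild type (WT) or Qk-/-, with antibodies against RNA polymerase II (Pol II), Srebp2 and Qki-5, the isoform of the RNA-binding protein Qki that resides in the nucleus. According to the methods, the NSCs came from entire brains of newborn Nestin-CreERT2;Qk L/L pups, in which Cre is driven by the Nestin promoter, and Qk was deleted in the cultured NSCs with 4-hydroxytamoxifen before differentiation in medium containing triiodothyronine. How the WT cells were treated, and whether the libraries came from separate cultures, is not given in the sources used here. Each antibody and genotype had 1 library. The Pol II and Qki-5 libraries were made at passage 7 and shared an input within a genotype, whereas Srebp2 was profiled at passage 8 against separate inputs. With 1 library in each group, there was no spread between replicates and no test of any difference between genotypes.

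The WT lists held 32280 Pol II, 7539 Qki-5 and 77 Srebp2 peaks, and the Qk-/- lists held 12835, 427 and 28. The text of the study describes longer sets of Qki-5 and Srebp2 peaks than these WT lists hold, for a reason not given in the sources used here, so every Qki-5 and Srebp2 share applies to these lists alone. Because read totals are not part of the lists, sequencing depth is unknown, and a fold enrichment (ChIP signal at the summit over the local background) was compared only within its list, as a percentile among the genes with a promoter peak in that list. The label of differentiated oligodendrocytes was met in part. A Pol II promoter peak lay at 4 of 11 oligodendrocyte markers in either genotype (Cnp, Olig1, Olig2 and Gstp1), whereas Mbp, Mag, Mog, Sox10, Myrf and Aspa were among those without one. All 4 NSC markers (Nes, Sox2, Pax6 and Hes5) and 3 of 4 astrocyte markers had one in both genotypes, and none of 4 microglia markers did. Of the precursor markers Cspg4 had one in both genotypes and Pdgfra in WT alone, and of 4 neuron markers Tubb3 had one, in WT alone. A peak list from such a culture cannot tell fewer cells of a type from less Pol II in each cell.

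The promoters of 3 of the ribosomal protein genes with the highest WT Qki-5 fold enrichment are shown because a Qki-5 peak overlapped each of them. Each runs, in mm10, from 150 bases before to 20 bases from the first transcribed base of the principal transcript on, read on the strand of the gene. Capitals mark the pyrimidine run that begins with C within 10 bases of the start site, and matches on either strand to GGGCGG (Sp1/KLF), CCAAT (NF-Y), and 6 further motifs that none of these promoters holds in the printed stretch. Rps3a1 lies at chr3:86142683-86142852, minus strand, Rps20 at chr4:3835646-3835815, minus strand, and Rpl18 at chr7:45717921-45718090, plus strand.
Rps3a1: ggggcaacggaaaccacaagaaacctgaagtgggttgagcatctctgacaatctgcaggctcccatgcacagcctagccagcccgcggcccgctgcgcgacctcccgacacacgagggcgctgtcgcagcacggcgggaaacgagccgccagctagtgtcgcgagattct
Rps20: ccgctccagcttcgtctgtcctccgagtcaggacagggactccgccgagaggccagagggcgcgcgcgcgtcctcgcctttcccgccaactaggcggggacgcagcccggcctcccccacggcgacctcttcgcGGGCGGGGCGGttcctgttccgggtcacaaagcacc
Rpl18: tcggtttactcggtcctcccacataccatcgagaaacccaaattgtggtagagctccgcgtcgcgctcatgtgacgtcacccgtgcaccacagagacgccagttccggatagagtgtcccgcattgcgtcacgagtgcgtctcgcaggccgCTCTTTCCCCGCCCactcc

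In Rps20, overlapping copies of GGGCGG began 16 and 11 bases before the start. Rpl18 carried a run of 10 pyrimidines from the base after the start, with GGGCGG on the opposite strand overlapping its end, and the printed stretch of Rps3a1 held none of the features marked. For contrast, the 3 genes with the highest WT Pol II fold enrichment and no Qki-5 peak were Rpl10 (chrX:74270662-74270831, plus strand), Rps9 (chr7:3703843-3704012, plus strand) and Rpl7a (chr2:26910614-26910783, plus strand).
Rpl10: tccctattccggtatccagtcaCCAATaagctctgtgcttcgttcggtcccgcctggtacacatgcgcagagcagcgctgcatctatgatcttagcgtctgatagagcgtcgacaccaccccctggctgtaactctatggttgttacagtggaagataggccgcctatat
Rps9: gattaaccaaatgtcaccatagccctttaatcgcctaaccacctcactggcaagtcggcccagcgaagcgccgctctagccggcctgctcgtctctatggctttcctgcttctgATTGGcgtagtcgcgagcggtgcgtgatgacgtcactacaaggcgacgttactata
Rpl7a: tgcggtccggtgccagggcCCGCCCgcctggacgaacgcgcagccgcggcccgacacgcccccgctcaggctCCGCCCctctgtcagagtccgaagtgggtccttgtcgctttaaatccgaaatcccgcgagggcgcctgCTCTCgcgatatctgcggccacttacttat
In Rpl10, CCAAT began 128 bases before the start, and in Rps9 its reverse complement began 36 bases before it. Rpl7a held GGGCGG on the opposite strand at 131 and 78 bases before the start, and a run of 5 pyrimidines began 10 bases before it.

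Pol II was found at nearly all of these promoters, and at high levels. A WT Pol II peak overlapped the promoter (up to 2 kb to either side of an annotated transcription start site, TSS) in 80 of 83 genes (96.4%, exact Clopper-Pearson 95% interval 89.8% to 99.2%, counting error only), against 54.1% of all protein-coding genes. All 32 small subunit genes and 48 of 51 large subunit genes had one. The 3 without a peak were Rpl10l, Rpl39l and Rpl3l, paralogs known for expression in testis (Rpl10l and Rpl39l) or in heart and skeletal muscle (Rpl3l). None of the 3 had a promoter peak in any other list either, and WT Pol II peaks covered 1.37% of the Rpl3l gene and none of the Rpl10l and Rpl39l genes. The other paralogs named for a member did carry Pol II: Rpl22l1 had a WT fold enrichment of 29.6, Rpl7l1 of 29.4 and Rps27l of 32.8.

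Across the 80 genes the WT Pol II fold enrichment of the strongest promoter peak had a median of 29.8, from 8.45 to 85.1, whereas the median over all 11879 protein-coding genes with such a peak was 15.8. The median percentile was 87.5, with 52 of the 80 genes in the top 25% of Pol II-bound genes, 32 in the top 10% and 11 below the middle of the list. Rpl3, a core protein of the peptidyl transferase region, was the highest at 85.1 and ranked 25 among all protein-coding genes. Rps20 followed at 71.0, ranked 55. Rpl10, which joins the large subunit late in its maturation, had 55.2, Rps9 had 54.8, Rpl7a had 52.2 and Rps2 had 51.5. The next 4 were close together, with 48.1 at Rps27, 47.2 at Rpl17, 46.7 at Rps18 and 46.2 at Rps12. At the low end, Rpl34 had 8.45 and Rpl4 had 8.74, followed by 10.01 at Rps25, 10.7 at Rpl22 and 12.1 at Rpl37a. The large and small subunit genes had the same median to 3 digits (29.8).

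**Figure D1:**
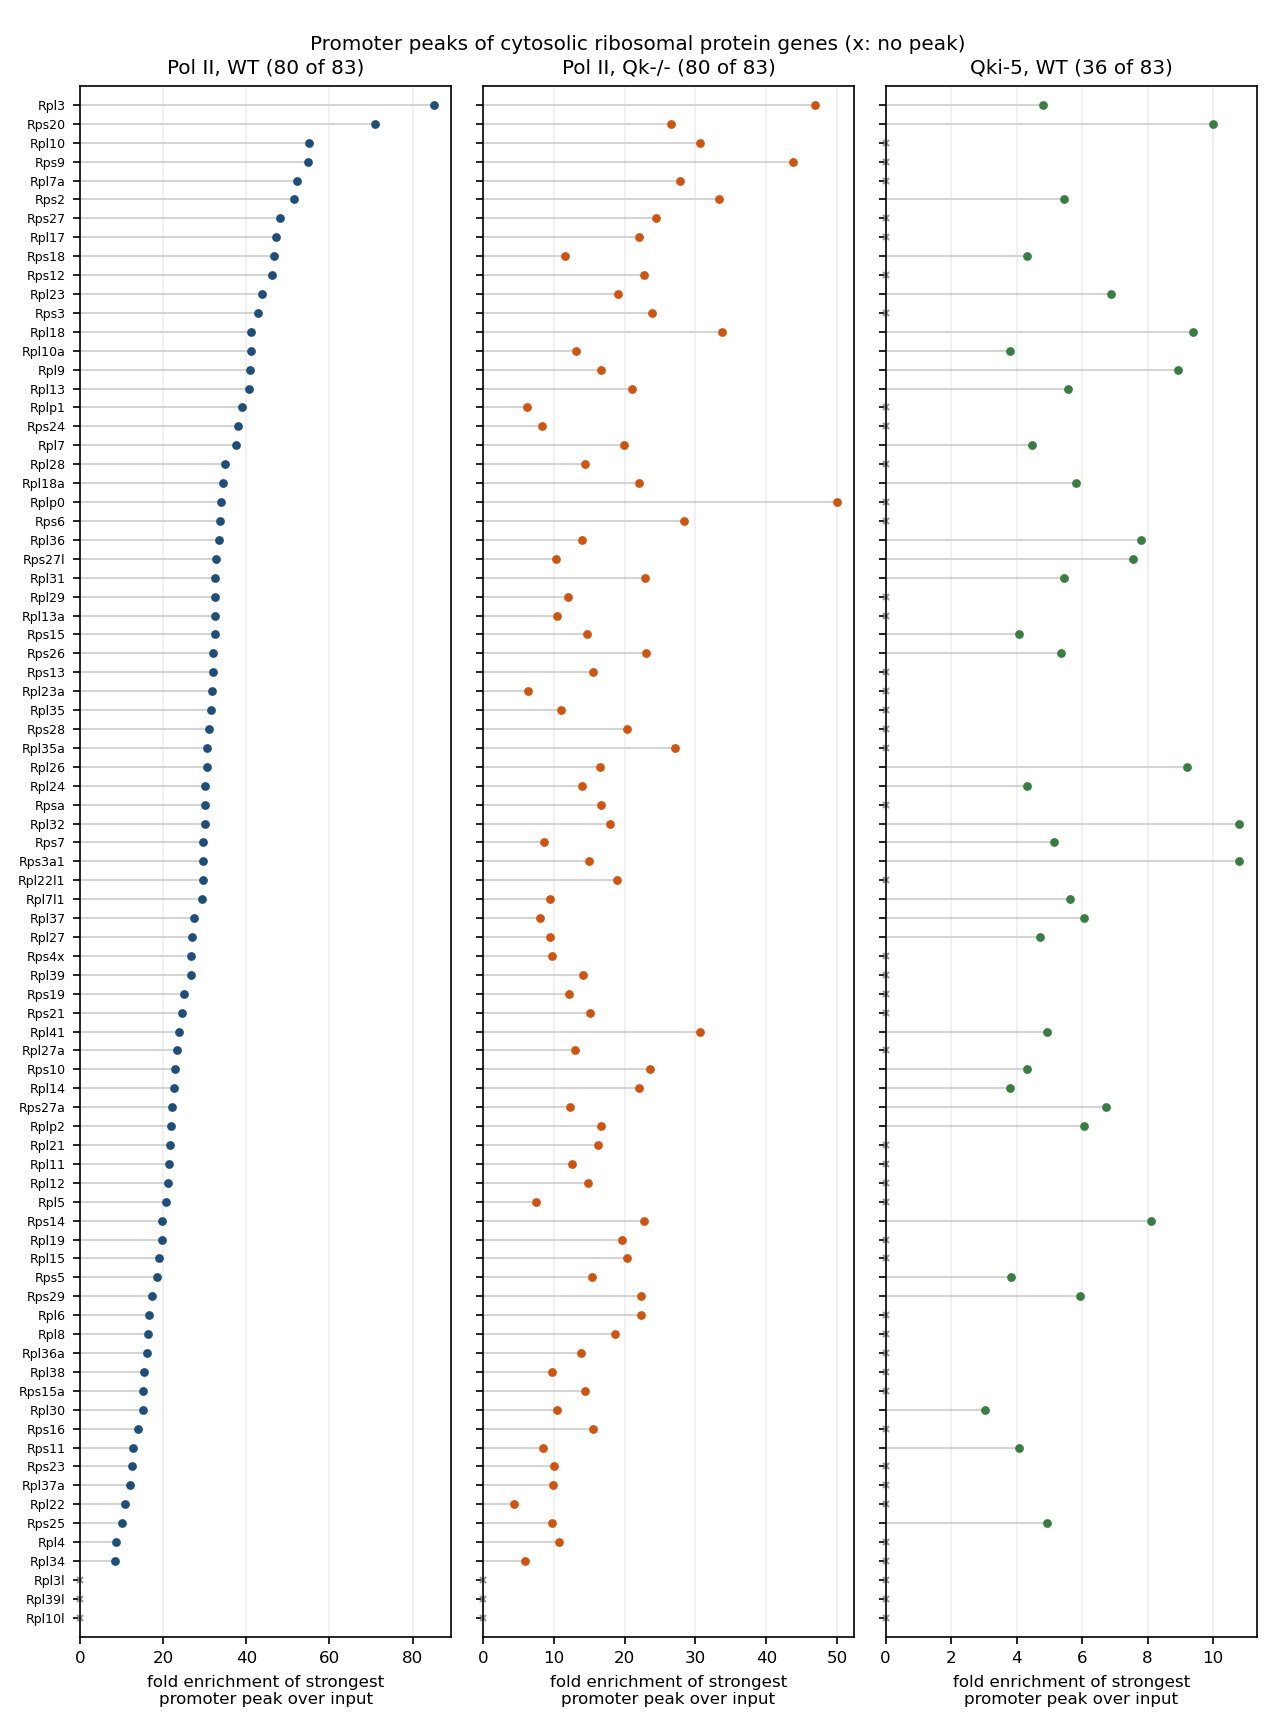
Each row is a ribosomal protein gene (a few are not drawn, while the counts above the panels cover all 83), ordered by WT Pol II fold enrichment, and each point is the fold enrichment over input (x axis, linear, separate scale in each panel) of its strongest promoter peak in the WT Pol II, Qk-/- Pol II or WT Qki-5 list, with a cross where the list holds no peak. The order of WT Pol II is kept only loosely in the Qk-/- list, and Qki-5 peaks are spread over the whole order, from Rpl3 at 85.1 to Rps25 at 10.01 in WT Pol II.

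The Pol II signal sat just downstream of the start sites. The WT summit lay at a median of 62.5 bp downstream of the nearest annotated TSS of the gene, with 72 of 80 summits downstream of it and 76 within 500 bp, and the Qk-/- summit at a median of 74.0 bp with 74 of 80 downstream. In all protein-coding genes the medians were 57.0 and 60.0 bp. Of their 11879 WT summits 8305 were downstream and 10677 within 500 bp, and of their 10215 Qk-/- summits 7251 were downstream. The summits of the 2 genotypes lay within 100 bp of each other in 74 of 80 genes, against 81.2% of all genes with a peak in both lists. Far summits were few and mostly lay in peaks shared with a neighbour. At Rpl18 the strongest WT peak was 9881 bp wide, reached the promoters of Dbp and Sphk2 and had its summit at -8606 bp, upstream of the TSS, whereas the Qk-/- summit was 5 bp downstream of the TSS. At Rpl7 the summit lay at -788 bp in WT and at -831 bp in Qk-/- cells, in peaks that also covered the promoter of Rdh10. At Rpl35 it lay 568 and 548 bp downstream in WT and Qk-/- cells. At Rps14 the strongest WT and Qk-/- peaks belonged to different annotated start sites, with summits 26511 bp apart, 569 bp downstream of the one and 70 bp downstream of the other, and the WT peak also covered the promoter of Ndst1.

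**Figure D2:**
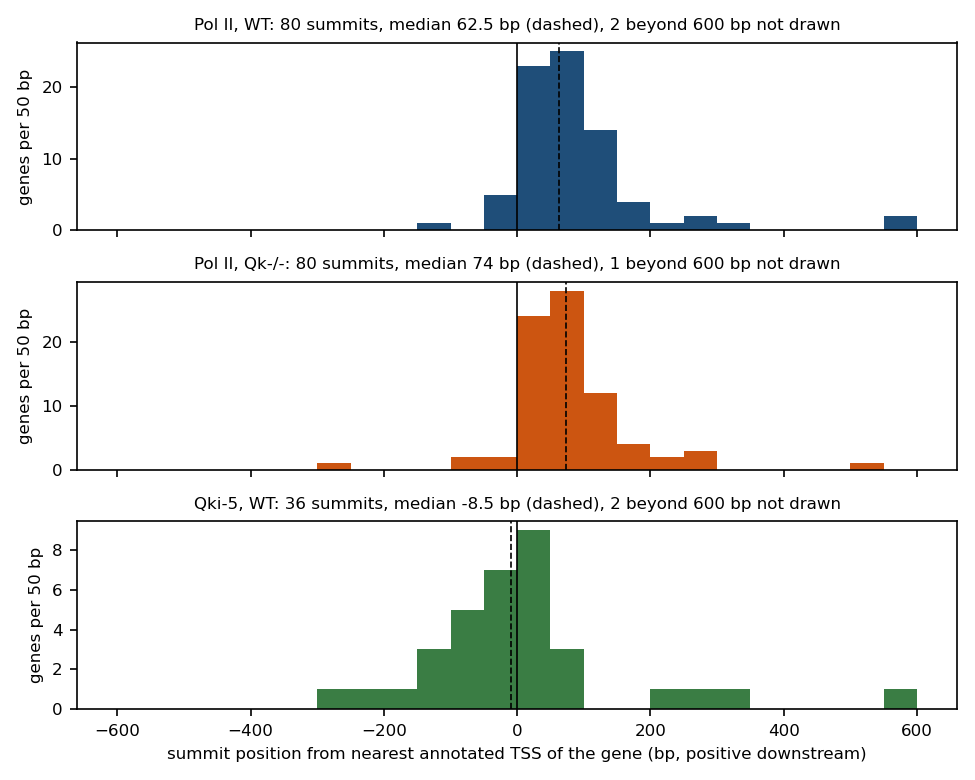
Histograms of summit positions from the nearest annotated TSS of the gene (x axis, bp, positive downstream; y axis, genes per 50 bp) for the WT Pol II, Qk-/- Pol II and WT Qki-5 lists. The dashed medians are at 62.5, 74.0 and -8.5 bp, and the few summits beyond 600 bp are counted above each panel and not drawn.

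Pol II peaks also reached far into these short genes. In WT cells, Pol II peaks covered a median of 49.5% of the gene body, over its annotated length, and covered 13 genes whole, among them Rps2, Rps27, Rpl7a and Rpl41. In Qk-/- cells the median was 18.3% and no gene was covered whole, the highest being Rpl10a with 84.5%. The WT peaks over Rps2, Rps27, Rpl7a and Rpl41 also reached promoters of neighbours (Rnf151, Rab13, Med22, Surf1, Surf2 and Zc3h10). Whole coverage there need not come from the ribosomal protein gene alone, and genes covered whole were not counted over all protein-coding genes. Gene length bears on these shares, since the median length was 3328 bp for the ribosomal protein genes and 24163 bp for all genes with a WT Pol II peak, whose medians were 4.11% and 1.47%. Among the 801 Pol II-bound protein-coding genes between 2502 and 4761 bp long, the medians were 32.1% and 10.2%, and the 40 ribosomal protein genes in that range had 47.6% and 18.01%. The promoter peaks were narrower in the Qk-/- list over all genes as well (median 701 bp against 1332 bp in WT, and 829.5 bp against 1973.5 bp for the ribosomal protein genes), and the part of list size in the coverage was not tested. Exons of these genes have near-identical copies in pseudogenes, to which reads from a gene body could be assigned, so values in the body are less certain than those at promoters.

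Qki-5 was found at fewer of these promoters than Pol II. A WT Qki-5 peak lay at 36 of 83 genes (43.4%, 32.5% to 54.7%), against 19.4% of all protein-coding genes. All 36 also had a WT Pol II peak, as did 4110 of the 4258 protein-coding genes with a WT Qki-5 peak. Among genes with a WT Pol II peak the share was 45.0% of the ribosomal protein genes (36 of 80, 33.8% to 56.5%) against 34.6%, and the lower bound of the interval lies just under the latter. These values rest in part on weak peaks: with peaks under a fold enrichment of 5 left out, 21 genes had Qki-5, beside 10.9% of all protein-coding genes. That was 26.2% of those with Pol II (21 of 80, 17.0% to 37.3%), beside 19.9% of all genes under the same threshold. The genes with more Pol II had Qki-5 more often in the whole genome: in the top 25% of WT Pol II fold enrichment, 55.0% of protein-coding genes had a Qki-5 peak, against 25 of 52 ribosomal protein genes there (48.1%, 34.0% to 62.4%). Going down the Pol II ranking by steps of 25%, the ribosomal protein genes had 8 of 17, 3 of 9 and 0 of 2, beside 41.2%, 28.6% and 13.6% of all genes. In each of these steps the interval of the ribosomal protein genes included the share of all genes. Below the top step the intervals were too wide to show agreement or difference (23.0% to 72.2%, 7.49% to 70.1% and 0.0% to 84.2%). Small subunit genes had Qki-5 at 16 of 32 and large subunit genes at 20 of 51, with overlapping intervals (31.9% to 68.1% and 25.8% to 53.9%).

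**Figure D3:**
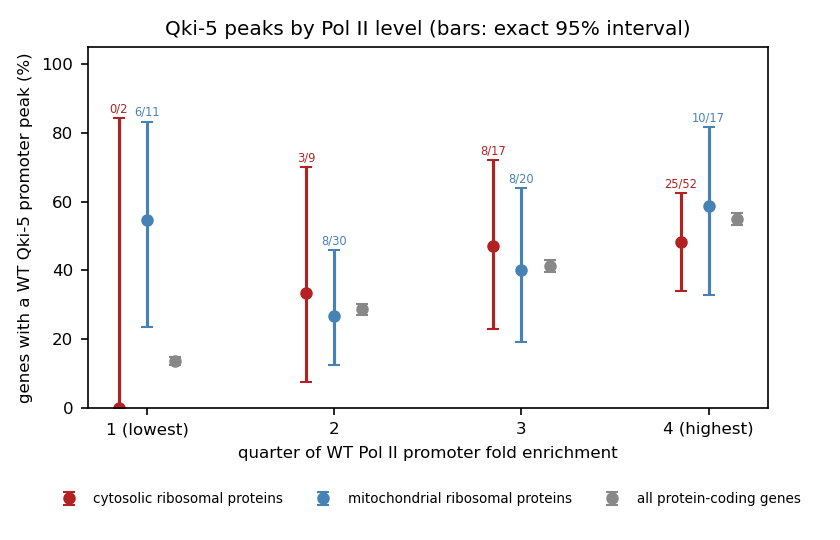
The share of genes with a WT Qki-5 promoter peak (y axis, percent) is plotted for each 25% step of WT Pol II promoter fold enrichment (x axis, lowest to highest) for cytosolic ribosomal protein genes, mitochondrial ribosomal protein genes and all protein-coding genes, with exact 95% intervals as bars and counts above them. The share in all genes goes from 13.6% to 55.0%, and the interval of the cytosolic ribosomal protein genes includes the value of all genes in each step. The lower steps hold few of these genes, and their intervals are too wide to show agreement or difference.

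The strongest Qki-5 peaks were at Rpl32 and Rps3a1, both with a fold enrichment of 10.8 and tied at rank 152 of the 7539 peaks. Rps20, the second gene of the family by Pol II, had 10.03, and Rpl18 had 9.40 in a peak shared with Sphk2. Rpl26, known to bind p53 mRNA, had 9.20, Rpl9 had 8.92 in a peak shared with Lias, and Rps14 had 8.10 in a peak shared with Ndst1. That peak, the strongest of 3 at Rps14, lay at the start site of its strongest WT Pol II peak. The start of the principal transcript is a different one, distant from that peak. Rpl36 had 7.80, Rps27l had 7.55 and Rpl23 had 6.87. Among the lowest were Rpl30 with 3.04, then Rpl14 and Rpl10a with 3.80 each. The median over the 36 genes was 5.46, at percentile 56.9 of the 4258 genes with a Qki-5 promoter peak (median 5.15). The median was thus near the middle of the list, with 16 of the 36 genes below it, but 9 of the 36 (12.1% to 42.2%) were in the top 10%, beside 10.1% of all genes with a Qki-5 peak. Genes with and without Qki-5 had similar Pol II: the WT Pol II medians were 30.1 (10.01 to 85.1) and 28.1 (8.45 to 55.2), and only Rpl3 and Rps20, both with Qki-5, lay above the range of the genes without it, whereas over all protein-coding genes the medians were 20.2 and 13.4.

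The Qki-5 summits were at the start site itself. Their median position was -8.5 bp (interquartile range -82.5 to 46.75), 33 of 36 lay within 500 bp, and 19 were upstream and 17 downstream of the TSS. Placement was similar over all 4258 protein-coding genes with a Qki-5 promoter peak. Their median was 7.0 bp (-120.0 to 127.0), with 3689 summits within 500 bp and 2226 downstream. In 29 of the 36 genes the Qki-5 summit lay upstream of the WT Pol II summit of the same gene, against 55.5% of the 4110 protein-coding genes with both peaks. The median difference along the gene was -107.0 bp over all 36 genes, whereas it was -23.0 bp over the 4110. The 2 summits were within 200 bp in 26 of 36 genes, against 60.7%. In the printed promoters, the Qki-5 summit was at -42 in Rpl18, and at 17 in Rps20, counted from the printed start, whereas in Rps3a1 it was at 46, beyond the end of the printed stretch. The summits of Qki-5 and Pol II lay farthest apart at Rpl18 (11178 bp), where the strongest Pol II peak was the distant one near Dbp, at Rps10 (-1774 bp along the gene) and at Rpl41 (1372 bp), pairs named after their values were seen. The Qki-5 summits beyond 500 bp of a start site were those of Rpl41 at 1403 bp in a peak shared with Zc3h10, Rpl7 at -1031 bp in a peak shared with Rdh10, and Rps14 at 553 bp in a peak shared with Ndst1. No 2 ribosomal protein genes shared a peak with each other in any list.

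In Qk-/- cells the Qki-5 peaks of the family were absent from the list with 1 exception. Rpl32 kept a Qki-5 peak, with a fold enrichment of 8.03, a width of 211 bp (606 bp in WT) and a summit at -59 bp (-126 bp in WT). That is 1 of the 36 genes with a WT Qki-5 peak, beside 4.18% of all protein-coding genes with one, and 1 of 83 genes (1.20%, 0.0305% to 6.53%) beside 0.870% of all. Srebp2, the transcription factor of cholesterol synthesis, had no promoter peak at any of the 83 genes in either list (0 of 83 in each, upper bound 4.35% for counting error only, in lists as short as these), beside 0.292% of protein-coding genes in WT and 0.118% in Qk-/- cells. The Srebp2 summit nearest to any of them on the same chromosome was 171714 bp from the TSS of Rpl3 in WT and 171751 bp in Qk-/- cells.

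Pol II was kept at the family in Qk-/- cells. All 80 genes with a WT Pol II peak also had a Qk-/- Pol II peak, and none gained one (80 of 83, 96.4%, beside 46.5% of all protein-coding genes). Over all protein-coding genes with a WT peak, 85.7% had one in both lists, and in the top 25% of WT fold enrichment, where most of the family lies, 99.4% did. The Qk-/- fold enrichment had a median of 15.5, from 4.36 to 49.9, beside 10.2 over all genes, and 46 of 80 genes were in the top 25% of the list. Among the highest were Rplp0 at 49.9, Rpl3 at 46.9, Rps9 at 43.8 and Rpl18 at 33.8, and the lowest was Rpl22 at 4.36.

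On the 10177 protein-coding genes with a promoter peak in both Pol II lists, the median percentile of the family was 85.6 in WT and 77.9 in Qk-/- cells. Gene by gene there was no common direction: 42 genes were lower and 38 higher in the Qk-/- ranking, with a median difference of -0.4 percentile points (interquartile range -13.3 to 12.5), beside 0.4 (-14.5 to 15.0) over all genes. Among the 52 members in the top 25% in WT, 38 were lower (73.1%, median -4.5), close to the 69.8% (median -6.6) of all genes that started there. The median difference was -2.15 points in the 36 genes with a WT Qki-5 peak and 0.2 in the 44 without, with ranges of -49.6 to 44.2 and -78.0 to 46.9. The fold enrichments of both genotypes were related with a Spearman's rho of 0.465 over the 80 genes and 0.618 over all genes, given as a description, since each point comes from the same pair of libraries.

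The 3 largest differences in each direction are given here. Rplp1, a protein of the ribosomal stalk, had a fold enrichment of 38.9 in WT (percentile 94.1) and 6.24 in Qk-/- cells (percentile 16.1), a difference of -78.0 points. The other stalk proteins differed less. Rplp0 stood at percentile 90.3 in WT (33.8) and was the highest of the family in Qk-/- cells (49.9, percentile 99.6). Rplp2, which was added after its values were seen, had 21.9 in WT and 16.7 in Qk-/- cells, 14.8 points higher, and was the one of the 3 with a Qki-5 peak (6.06). Rpl23a went from 31.8 to 6.44 (-71.1 points). Its WT peak was 8695 bp wide and also covered the promoters of Nek8 and Tlcd1, whereas its Qk-/- peak was 807 bp wide. Rps24 went from 38.1 to 8.38 (-59.0 points). In the other direction, Rpl6 had 16.6 and 22.3 (46.9 points higher), Rps29 had 17.2 and 22.3 (44.2 points), and Rps16 had 14.0 and 15.5 (44.1 points). Of the 6 genes with the largest differences, Rps29 alone had a Qki-5 peak in WT. With 1 library for each genotype, such differences between single genes cannot be told apart from variation between libraries.

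**Figure D4:**
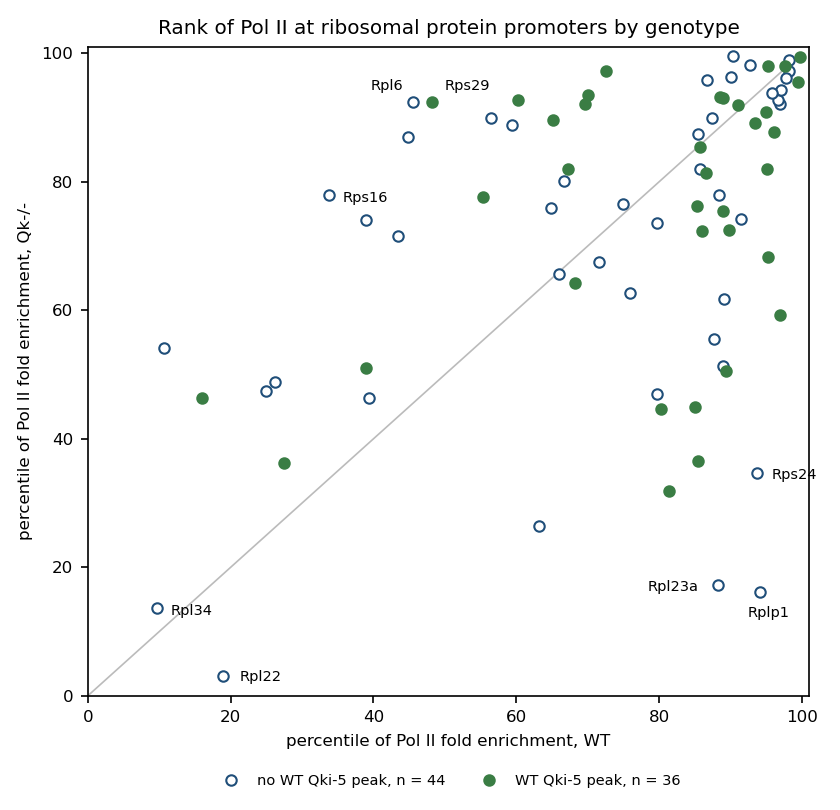
Percentile of the Pol II promoter fold enrichment in WT (x axis) and Qk-/- cells (y axis) among protein-coding genes with a promoter peak in both lists, 1 point for each of 80 ribosomal protein genes, filled where WT cells had a Qki-5 peak. Filled and open points lie on both sides of the line of equal rank, and the largest differences are at Rplp1, Rpl23a and Rps24 below it and Rpl6, Rps29 and Rps16 above it.

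Sequence features of the start sites are described here for the 80 genes with a WT Pol II peak beside all 11879 protein-coding genes with one. None of them was tested, and no feature more frequent than in all genes was held by most members. A C followed by at least 4 pyrimidines began exactly at the annotated first base in 10 genes (12.5%, against 2.24%) and within 10 bases of it in 38 (47.5%, against 30.1%), beside 5.13% and 34.6% of the mitochondrial ribosomal protein genes. These counts rest on the annotated first base of the principal transcript, and the base where transcription starts in these cells was not measured. They are therefore no count of genes with a TOP mRNA. At Rpl10, the WT Pol II summit lay 76 bp downstream of the base used here and 28 bp downstream of the nearest annotated TSS. In the 300 bases from 250 before to 50 after the start, CCGGAAG (the core of ETS factor sites) on either strand was found in 35.0% (28 genes, against 18.3%) and AAGATGG, the core of YY1 sites, in 13.8% (against 7.59%). The mitochondrial ribosomal protein genes had these at 37.2% and 17.9%, above the family. TATAAA was found in 11.2% (against 6.69%) and CACGTG, an E-box, in 12.5% (against 9.87%). GGGCGG was less frequent in the family (53.8% against 65.2%), as was CCAAT (30.0% against 38.2%). The median GC content of the window was 56.2%, against 61.0%. The hexamers ACTAAC and ACTAAT, the core of the element that Qki binds in RNA, were looked for in the DNA of the same window: 1 or both were found in 3 of the 36 genes with a Qki-5 peak and in 8 of the 44 without, beside 8.06% of all genes with a WT Pol II peak. CCGGAAG was found in 16 of the 36 (44.4%) and 12 of the 44 (27.3%), and CACGTG in 7 (19.4%) and 3 (6.82%). Over all protein-coding genes with both WT peaks the shares were 19.9% and 13.1%, beside 18.3% and 9.87% of all Pol II-bound genes. The latter include the genes with Qki-5, and the shares of all genes without it were not computed. CACGTG was thus more frequent with Qki-5 over all genes as well. GGGCGG was found in 52.8% of the 36 and 54.5% of the 44, and AAGATGG in 13.9% and 13.6%. CCAAT was found in 33.3% and 27.3%, and TATAAA in 13.9% and 9.09%. Matches of letters are a description and are no measurement of a factor there.

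Features of the loci were found at similar shares in genes with and without Qki-5. snoRNA genes lay inside 30 of the 83 genes on the same strand, 58 in all and 5 at most, in Rpl4. The 30 host genes had a median WT Pol II fold enrichment of 30.9 and Qki-5 at 12 (40.0%), beside 29.5 and 24 of 50 (48.0%) for the other Pol II-bound genes. A protein-coding gene on the opposite strand started within 1 kb upstream of 12 members, such as Lias at Rpl9, Sphk2 at Rpl18 and Vps52 at Rps18. Of these 12, 5 had a Qki-5 peak, beside 31 of the other 68, and a peak between such divergent genes cannot be assigned to either. Host genes of snoRNAs and divergent starts were not counted over all protein-coding genes, so neither is shown to be particular to the family. Of 289 pseudogenes named for members of the family, 10 had a WT Pol II peak within 2 kb (3.46%, beside 2.89% of 13132 processed pseudogenes), 5 had a Qk-/- Pol II peak, and none had a Qki-5 peak. For the Qk-/- Pol II and Qki-5 lists the shares of all processed pseudogenes were not computed, so those counts are not shown to be particular to this family.

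The mitochondrial ribosomal protein genes, whose products form the separate ribosome of mitochondria, were chosen by the same kind of rule on names (78 genes). All 78 had a WT Pol II promoter peak and 72 (92.3%) also had a Qk-/- peak, compared with 80 of 80 in the cytosolic family. Their median WT Pol II fold enrichment was 15.4 (percentile 47.8), near that of all genes, and 17 of 78 were in the top 25%, where 52 of the 80 cytosolic genes lay. In the Qk-/- list the median percentile was 41.7, beside 77.9. Qki-5 was found at much the same share of both, 32 of 78 mitochondrial genes (41.0%, 30.0% to 52.7%) and 36 of 80 cytosolic genes (45.0%), and the median Qki-5 fold enrichments were 4.96 and 5.46. No difference between the sets was tested, since their members were chosen with the lists known.

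**Figure D5:**
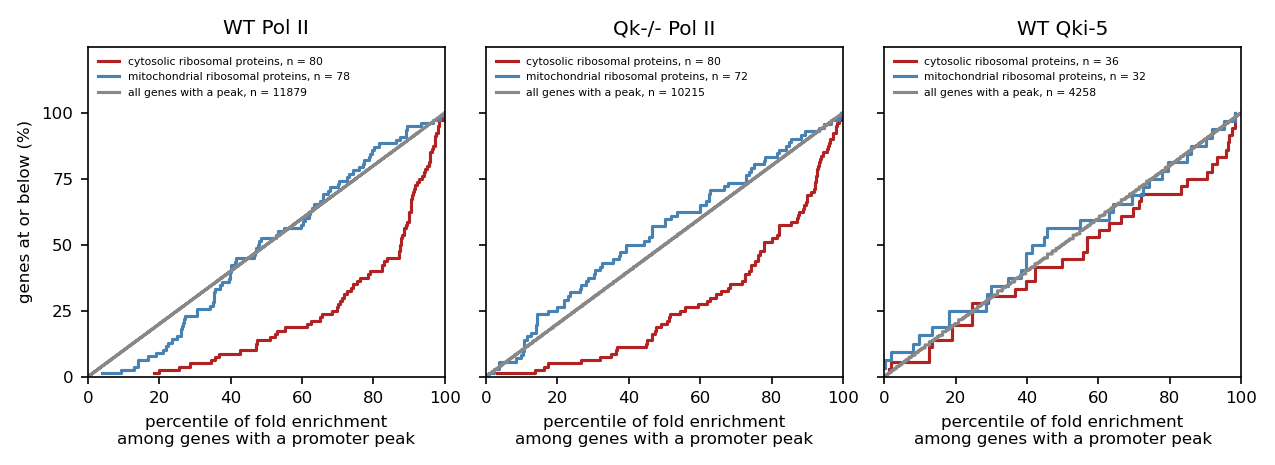
Cumulative share of genes (y axis, percent) by percentile of fold enrichment among protein-coding genes with a promoter peak (x axis) in the WT Pol II, Qk-/- Pol II and WT Qki-5 lists, for cytosolic ribosomal protein genes, mitochondrial ribosomal protein genes and all genes with a peak. In both Pol II lists the cytosolic curve lies to the right, with medians at 87.5 and 77.9, whereas the mitochondrial curve (47.8 and 41.7) runs near that of all genes, and in the Qki-5 list the medians are closer (56.9 cytosolic, 43.1 mitochondrial and 49.9 for all genes) while the upper part of the cytosolic curve lies to the right, with its upper quartile at 86.4 beside 75.2 for the mitochondrial genes.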

How the data were processed

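The data were 6 lists of ChIP-seq peaks, 1 for each antibody (Pol II, Qki-5 and Srebp2) and genotype. Reads were trimmed, aligned to mm10 with Bowtie2 and freed of duplicates, and MACS2 then called peaks per library, relative to input, at a q-value of 0.05 (methods of the study). The submitters' processing notes instead name Bowtie 1.2.2, with MACS2 2.1.2. The authors deposited for each peak a fold enrichment, which is a ratio of signal to local background at the summit. They also deposited −log10 p-values and −log10 q-values of the peak caller, and the score deposited by the authors was not used. Read totals were not used, as the lists hold none, so depth and its precision are unknown.

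Promoters were the regions within 2000 bp of any TSS in the basic set of GENCODE M21, and a peak counted for every promoter it overlapped by at least 1 bp. The strongest peak gave a gene its fold enrichment, percentile and summit position. Sequences were read from the RefSeq copy of GRCm38 at the TSS of the principal transcript of each gene, with pysam 0.24.0. Exact intervals and Spearman's rho were computed with scipy 1.17.1. The assignment was tested on planted peaks. Alternatives were peaks with q under 0.01 or a fold enrichment of at least 5, windows of 1 and 2.5 kb, the summit inside the promoter, the nearest TSS alone, WT Qki-5 peaks without those overlapping a Qk-/- Qki-5 peak, and other rankings.

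No comparison was tested: each group had 1 library, and the members, the gene lists and the motifs were chosen with earlier results of these data known. Genes were named by rule: those without WT Pol II, with Qk-/- Qki-5 or Srebp2 peaks, with the highest and lowest fold enrichments in each list, with the largest percentile differences between genotypes, with the farthest summits, and paralogs of other members. Sequences were printed for genes among the 4 highest for Qki-5 and for the 3 highest Pol II genes without Qki-5, leaving out chromosome 18. A few genes and sequences are not reported here.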

Additional observations from a re-analysis of the deposited data

How the results depend on the processing

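The 13 main counts, shares, percentiles and positions were recomputed under other thresholds, promoter windows, rules of assignment and rankings, which gave 91 alternative values. Of these, 88 stayed within 1.5 times the count or within the 95% interval of the reported value, none changed sign, and 3 did not. When peaks under a fold enrichment of 5 were left out, 21 ribosomal protein genes had a WT Qki-5 promoter peak in place of 36, and 26.2% of those with a WT Pol II peak had one in place of 45.0%, while the share of all Pol II-bound protein-coding genes went from 34.6% to 19.9%. Ranked among all peaks of the list in place of promoter-bound genes, the median WT Pol II percentile was 95.8 in place of 87.5. Ranking within the genes bound in both Pol II lists, an alternative chosen after seeing the data, gave 85.6 and 77.9. Within the limits above, values still shifted when a peak counted for the nearest protein-coding TSS alone. Under that rule 30 ribosomal protein genes had a WT Qki-5 peak, and the share of those with Pol II was 38.5%. A Qk-/- Pol II peak was then found at 77 of the 78 genes with a WT one. The shares of all genes under that rule were not computed. No paired analysis was possible because each antibody and genotype had 1 library, and no library could be left out. The lists hold no read totals, so a promoter without a peak is not shown to lack the protein.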

Other observations

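Genes that act with the ribosome were read in the same way, from lists drawn up from general knowledge. Of 19 translation factors and further genes with TOP mRNAs, all had a WT Pol II promoter peak, 18 a Qk-/- peak (Eif3h, a subunit of initiation factor eIF3, had none) and 16 a WT Qki-5 peak (84.2%, 60.4% to 96.6%), beside 34.6% of all Pol II-bound genes and 45.0% of the ribosomal protein genes. The 3 without Qki-5 were Eef1g, Eef2 and Rack1. Their Qki-5 peaks were low, with a median fold enrichment of 4.48 at percentile 29.3 and a highest value of 6.56 at Btf3, whereas Pol II was mostly high, with a median percentile of 79.8 in WT, as at the elongation factor Eef1a1 (79.6 in WT and 58.6 in Qk-/- cells), the poly(A)-binding protein Pabpc1 (44.3 and 56.7) and Npm1 (57.6 and 26.1). In WT, 4 of the 19 (named after their values were seen) were below the middle of the Pol II list, with 4.26 at Eif3e, 9.64 at Eif3h, 10.5 at Eif4b and 11.4 at Eef1g. Fau, which encodes a ribosomal protein as a fusion, had a WT Pol II fold enrichment of 22.2 and a Qki-5 fold enrichment of 5.02. The list was not tested, and its share of Qki-5 peaks is a count over few genes.

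Of 20 ribosome biogenesis genes, all had a WT Pol II peak, 19 a Qk-/- peak (the snoRNP protein Nhp2 had none) and 7 a WT Qki-5 peak (35.0%, 15.4% to 59.2%). Ranked among the genes with a peak in both Pol II lists, 19 of them had a median percentile of 42.4 in WT and 26.9 in Qk-/- cells, with a median difference of -8.7 points, 13 genes lower and 6 higher. WT fold enrichments went from 4.85 at Nhp2 to 44.2 at Rrn3, and those in Qk-/- cells from 3.22 at Nolc1 to 37.4 at Nop56.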
